A study of Mus musculus with 57 samples.

Results

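The 10 genes described here carry the insulin signal and move glucose into cells: the glucose transporters Slc2a4, Slc2a1 and Slc2a3, the hexokinases Hk1 and Hk2, the insulin receptor Insr, the receptor substrates Irs1 and Irs2, the phosphatidylinositol 3-kinase (PI3K) subunit Pik3r1 and the kinase Akt2. They were taken by name from 24963 autosomal genes of the curated RefSeq set on mm10. For each gene, the peaks of H3K4me3, H3K27ac and H3K27me3 and the reads within them were compared between gastrocnemius and brain cortex, within 1 kb of its transcription start sites (TSS) and over the rest of the gene. The libraries came from 10 PSAPP mice, a transgenic model of Alzheimer's disease that carries mutant transgenes for a mouse/human amyloid precursor protein and for presenilin, killed at 13 months of age. Every mouse carried the transgenes and received a set daily ration of a modified AIN-93 diet, and no mouse without the transgenes was among the samples, so the comparison is one of tissues within this model. Per mark there were 9 cortex and 10 gastrocnemius libraries, 57 in all, and 9 animals gave both tissues. Both groups mixed males and females, which the sample labels do not tell apart.

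Insulin binds its receptor, a tyrosine kinase, which phosphorylates the insulin receptor substrates. These recruit PI3K through its regulatory subunit, and the lipid that PI3K makes activates AKT2, which releases vesicles carrying GLUT4, the product of Slc2a4, to the surface of muscle and fat cells. In the brain, glucose enters mostly through GLUT1 (Slc2a1) at the blood-brain barrier and in glia and through GLUT3 (Slc2a3) in neurons, largely without insulin. Hexokinase then traps the sugar as glucose 6-phosphate, HK1 being the form of brain and HK2 that of insulin-sensitive muscle. H3K4me3 marks the start sites of active or poised genes, H3K27ac marks active promoters and enhancers, and H3K27me3 marks genes silenced by Polycomb proteins.

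The reads in called peaks ran from 9.16 to 19 M (mega, as in Mb) per H3K4me3 library, from 3.94 to 27.3 M per H3K27ac library and from 2.99 to 18.2 M per H3K27me3 library. Reads that fell in no peak were not counted in the files. A library without a peak may therefore still hold some reads at a site. All 6 muscle fibre markers had an H3K4me3 peak in every gastrocnemius library, with a summed TSS level of 48.7 to 68.2 against 9.09 to 12.6 in the cortex. All 6 cortical neuron markers had one in every cortex library, with a summed level of 57.2 to 70.3 against 7.88 to 11.6. The sums were also higher in the cortex for astrocytes (10.7 to 15.1 against 3.92 to 7.07), oligodendrocytes (13.4 to 17.2 against 5.01 to 7.81, 2 of 3 markers measured) and microglia (3.74 to 8.83 against 0 to 1.13), and higher in gastrocnemius for fibroblasts (12.6 to 19.2 against 6.26 to 9.27). These sums are in RPM per kb: reads of called peaks per M reads in the autosomal peaks of the library, per kb of window. In tissue homogenates, fewer cells of a type and less of a mark per cell cannot be told apart. The deposited names of cortex libraries 8 and 9 and gastrocnemius libraries 5, 6, 9 and 10 carry a sequencing sample number that the others lack, and names of the 2 tissues carry different processing suffixes, so a difference in processing between tissues cannot be told apart from tissue. Replicate numbers below are those of the labels.

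The promoter sequences of 7 of the 10 genes, 12 in all, were found in the RefSeq promoter table of build GRCm38.p6 (mm10). Slc2a4, Slc2a3 and Insr are named only. The 250 bases before the start are shown for Hk2 and Slc2a1, whose tissue differences are described below, and for both start sites of Hk1, which carried different marks. They read 5' to 3' on the gene's strand, and capitals mark every CpG (the letters CG, which read alike on both strands).
Hk2 (chr6:82774455-82774704, minus strand): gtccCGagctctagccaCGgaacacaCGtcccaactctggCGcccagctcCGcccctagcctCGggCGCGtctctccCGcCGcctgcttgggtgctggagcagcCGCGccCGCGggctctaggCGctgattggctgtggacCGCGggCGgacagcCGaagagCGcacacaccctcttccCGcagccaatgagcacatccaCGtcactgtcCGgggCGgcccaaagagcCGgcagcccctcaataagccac
Slc2a1 (chr4:119108495-119108744, plus strand): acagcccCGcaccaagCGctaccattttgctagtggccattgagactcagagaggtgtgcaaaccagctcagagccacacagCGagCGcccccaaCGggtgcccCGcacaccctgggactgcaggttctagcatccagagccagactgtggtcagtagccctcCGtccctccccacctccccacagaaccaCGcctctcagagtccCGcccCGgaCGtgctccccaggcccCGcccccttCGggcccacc
Hk1, downstream start (chr10:62340422-62340671, minus strand): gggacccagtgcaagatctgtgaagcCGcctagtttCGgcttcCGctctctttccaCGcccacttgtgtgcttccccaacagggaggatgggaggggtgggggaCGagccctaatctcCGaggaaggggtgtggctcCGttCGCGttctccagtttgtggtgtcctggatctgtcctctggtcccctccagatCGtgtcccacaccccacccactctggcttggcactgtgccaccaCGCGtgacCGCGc
Hk1, upstream start (chr10:62379909-62380158, minus strand): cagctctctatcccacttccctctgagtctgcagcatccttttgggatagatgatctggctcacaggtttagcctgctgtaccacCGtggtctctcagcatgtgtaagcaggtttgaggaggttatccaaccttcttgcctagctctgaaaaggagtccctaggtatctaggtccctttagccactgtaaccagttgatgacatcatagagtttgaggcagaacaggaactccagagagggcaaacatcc
The Hk2 stretch held 25 CpGs, Slc2a1 13, the downstream Hk1 stretch 14 and the upstream Hk1 stretch 1. Over all 32851 promoters of the table the median was 6. At least 25 CpGs occurred in 10.7% of them, at least 13 in 31.5%, at least 14 in 29.4% and at most 1 in 18.8%. The richest member promoters were those of Irs2 with 34 CpGs, the upstream start of Pik3r1 with 30 and Irs1 with 28.

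In H3K4me3 reads within the TSS windows, gastrocnemius was called higher at Slc2a4, Slc2a1, Hk2, Irs1 and Akt2 and lower at Slc2a3 and Hk1, while Insr, Irs2 and Pik3r1 were not called. All 10 genes had an H3K4me3 peak at the TSS in every library of both tissues, so by Fisher's exact test none differed in calls, at an unadjusted p under 0.05 either; over all 16879 genes with a peak, 3.26% were called more often in gastrocnemius and 4.75% less often. By reads, 5 members rose and 2 fell, against 25.2% of 13723 tested genes higher and 28.8% lower (edgeR's quasi-likelihood test, Benjamini-Hochberg adjusted p under 0.1). The levels of 4 members did not overlap between the tissues, as was true of 19.1% of all genes tested. The median log2 change (gastrocnemius minus cortex, as everywhere below) was 0.24 over the members and -0.03 over all genes. Slc2a1 changed direction when all reads of the peaks touching the window were taken (-0.86, edgeR adjusted p = 1.39e-12). Irs1 was not called without the scaling described below (0.1, adjusted p = 0.417).

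**Figure D1:**
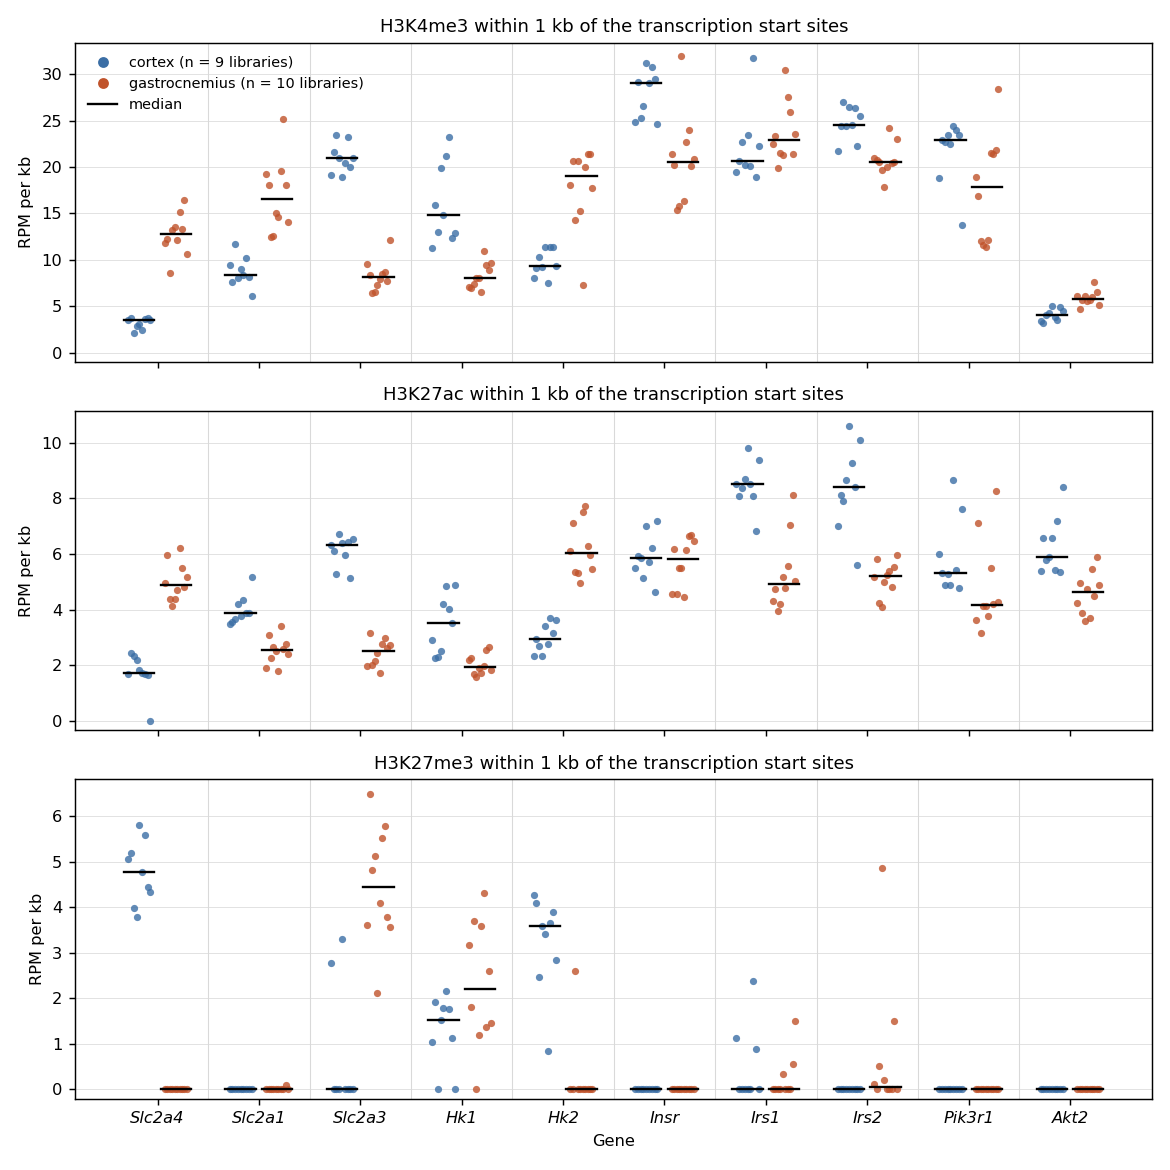
Level of each mark within 1 kb of the TSS in RPM per kb (y axis, linear, from 0) for the 10 genes (x axis), 1 point per library, with 9 cortex and 10 gastrocnemius libraries and the median as a bar. The tissues separate in opposite directions at Slc2a4 (H3K4me3 medians 3.5 and 12.7 in cortex and gastrocnemius) and Slc2a3 (21.0 and 8.11), and points at 0 are libraries without a peak.

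Over the gene bodies, H3K4me3 rose at Hk2 and Irs1 and fell at Slc2a1, Slc2a3, Hk1, Insr, Irs2 and Pik3r1. Of the 9 members tested, 2 were higher and 6 lower, where 32.7% and 30.6% of 9798 genes were. The levels of 3 members did not overlap, against 26.2% of genes, and the median log2 change was -0.37 against 0.07 over all genes. Slc2a4 was not tested, as only 4 of 9 cortex libraries had a peak over its body.

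H3K27ac reads at the TSS were called higher in gastrocnemius at Hk2 and Insr and lower at Slc2a1, Slc2a3, Hk1, Irs1, Irs2 and Akt2. With all reads of the peaks touching the window, the log2 changes of Insr, Irs1 and Irs2 turned direction (-0.14, 0.52 and 0.09). Every member had an H3K27ac peak in every library but 1, a cortex library at Slc2a4, so that 0 members differed in calls by Fisher's exact test, with none at an unadjusted p under 0.05, where 4.08% of 18671 genes were called more often in gastrocnemius and 8.99% less often. By reads, 2 of the 9 members tested rose and 6 fell, against 24.0% and 26.2% of 13231 genes. The levels of 3 did not overlap, against 10.5% of genes, and the median change was -0.38 against -0.02. Over the bodies, 3 of 9 rose (Hk2, Insr and Irs1) and 4 fell (Slc2a1, Slc2a3, Hk1 and Akt2), against 35.6% and 37.7% of 11465 genes. There the levels of 7 members did not overlap, against 34.2% of genes, and the median change was -0.09 against -0.03. Slc2a4 was left out of both tests, as 8 of 9 cortex libraries had a peak at its TSS and 4 of 9 over its body.

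H3K27me3 was called at the TSS of 7 members in at least 1 library (a peak at the TSS being one that touches the window, whether or not it reaches the start) and at Insr, Pik3r1 and Akt2 in none of the 19. Fisher's exact test called Slc2a3 more often marked in gastrocnemius and Slc2a4 and Hk2 less often. Over all 11012 genes with a peak, 13.1% were called more often and 10.3% less often. A peak in every cortex library and no gastrocnemius library, as at Slc2a4, was seen at 2.05% of genes, and the reverse at 3.11%. Reads could be tested over 1 body alone, that of Hk1, which rose, where 31.0% of 2913 genes did and 31.5% fell; the levels of 16.3% of them did not overlap.

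The changes in reads rest on a scaling (TMM) that sets most genes near 0. With scaling to the reads in peaks alone, the median log2 change of all genes moved to -0.33 for H3K4me3 and -0.29 for H3K27ac at the TSS and to 0.27 for H3K4me3 over bodies. The share of called genes that were higher then went from 46.6% to 15.9%, from 47.9% to 14.6% and from 51.7% to 64.9%, and for H3K27me3 at the TSS from 47.4% to 36.0%. Members whose direction changed with it are named below. The reads of a peak were shared evenly over its length, so a peak that is longer in 1 tissue lends less of its reads to the TSS window. Where 1 peak covers both the TSS window and the body, both take the same reads per kb from it. Their values are then not separate measurements. The change in all reads of the touching peaks is given beside the main value where it differs in direction and either value was called.

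**Figure D2:**
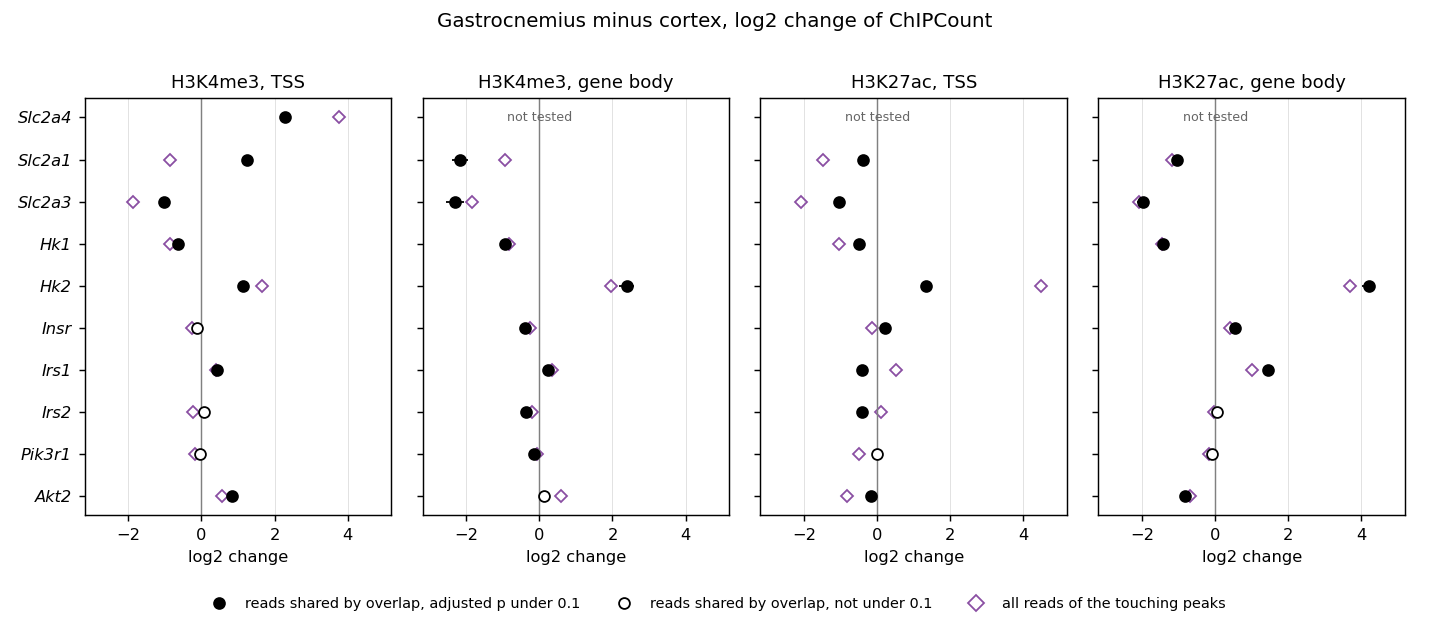
Log2 change of ChIPCount, gastrocnemius minus cortex (x axis), for the 10 genes (y axis) at the TSS and over the gene body. Circles are the main values with their standard errors, which are mostly smaller than the symbol, filled where the edgeR adjusted p was under 0.1. Diamonds take all reads of the touching peaks. Circle and diamond lie on opposite sides of 0 for Slc2a1 in H3K4me3 at the TSS (1.25 and -0.86).

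Slc2a4 (chr11:69942286-69948197, minus strand, 5.9 kb), the insulin-responsive transporter GLUT4, showed the widest contrast of the set at the TSS. H3K4me3 there ran from 2.17 to 3.79 RPM per kb in the cortex (median 3.5) and from 8.6 to 16.5 in gastrocnemius (median 12.7). Every gastrocnemius library lay above every cortex library. The log2 change was 2.28 ± 0.12 (SE, edgeR adjusted p = 4.23e-16), or 3.76 when all reads of the peak were taken, because the peak was longer as well, 5.0 to 16.6 kb (median 7.1) against 1.2 to 3.4 kb (median 1.8). Over the body, H3K4me3 ran from 8.6 to 14.8 in gastrocnemius, while 5 of 9 cortex libraries had no peak and the highest stood at 0.614. By median ends the gastrocnemius peak thus covered most of this short gene, and the cortex peak little beyond the start.

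H3K27ac at the Slc2a4 TSS ran from 4.15 to 6.2 RPM per kb in gastrocnemius (median 4.89) and from 1.67 to 2.45 in the 8 cortex libraries that had a peak. Cortex library 9, the shallowest of this mark with 3.94 M reads in peaks, had none, and for this reason the gene was not in the main test. Without that library the log2 change was 1.61 ± 0.11 (SE, edgeR adjusted p = 4.98e-11). Over the body, H3K27ac ran from 4.15 to 6.2 in gastrocnemius and up to 0.884 in the cortex, where 4 of 9 libraries had a peak. With libraries lacking a peak put at 0 reads, the body change was 4.35 ± 0.79 (edgeR adjusted p = 6.19e-05). The gastrocnemius peak was 20.4 to 45.0 kb long (median 24.0), by its median ends reaching beyond the gene on both sides, against 1.8 to 5.2 kb in the cortex. H3K27me3 went the other way. All 9 cortex libraries had a peak over the TSS, at 3.78 to 5.82 RPM per kb (median 4.79), and none of the 10 gastrocnemius libraries had one, library 5 with 18.2 M reads in peaks included (Fisher's exact test, adjusted p = 0.00021). The cortex peaks were 7.2 to 27.4 kb long and held 157 to 711 reads. Over the body the cortex had 2.62 to 5.82 RPM per kb and gastrocnemius no peak. The peaks at the TSS also cover much of this short gene, so the body is not a separate measurement. The 4 adipocyte markers, from the other main cell type that makes GLUT4, had no H3K4me3 peak at the TSS in any library of either tissue. In H3K27ac, Adipoq and Lep had none either, while the sum over the list reached 1.56 in the cortex and 2.1 in gastrocnemius, and its part in the values at Slc2a4 was not tested.

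Slc2a1 (chr4:119108745-119137330, plus strand, 28.6 kb) encodes GLUT1, the transporter of the blood-brain barrier. Its H3K4me3 peak was shorter in gastrocnemius, with more reads per kb, and longer in the cortex. Within 1 kb of the TSS it ran from 6.12 to 11.7 RPM per kb in the cortex (median 8.39) and from 12.5 to 25.2 in gastrocnemius (median 16.6), with no overlap, a log2 change of 1.25 ± 0.11 (SE, edgeR adjusted p = 1.1e-10). Over the body the order was turned round, 3.15 to 4.31 in the cortex and 0.3 to 1.4 in gastrocnemius, a change of -2.17 ± 0.21 (edgeR adjusted p = 4.47e-09). The cortex peak was 9.2 to 23.8 kb long (median 12.2) and the gastrocnemius peak 2.6 to 5.4 kb (median 4.0). In all reads of the touching peaks, Slc2a1 was lower in gastrocnemius, by -0.86 (adjusted p = 1.39e-12), so the direction at the TSS depends on how the reads of the long cortex peak are placed. The gene overlaps Gm12867, whose reads cannot be told apart from its own.

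H3K27ac at Slc2a1 was lower in gastrocnemius both at the TSS, 1.79 to 3.4 against 3.5 to 5.16 RPM per kb (log2 change -0.38 ± 0.085, edgeR adjusted p = 0.000711), and over the body, 1.62 to 2.45 against 3.41 to 4.38 (-1.05 ± 0.076, adjusted p = 9.82e-11). Neither pair of ranges overlapped. H3K27me3 touched the window in gastrocnemius library 9 alone, at 0.105 RPM per kb. In the brain, GLUT1 lies in the endothelial cells of the blood-brain barrier and in glia. The summed H3K4me3 level of all 4 endothelial markers, each with a peak in every library, was higher in gastrocnemius, 28.9 to 50.8 against 17.4 to 21.9, and so was that of H3K27ac, 12.4 to 20.5 against 5.8 to 9.52. Their part in the values at Slc2a1 was not tested.

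**Figure D3:**
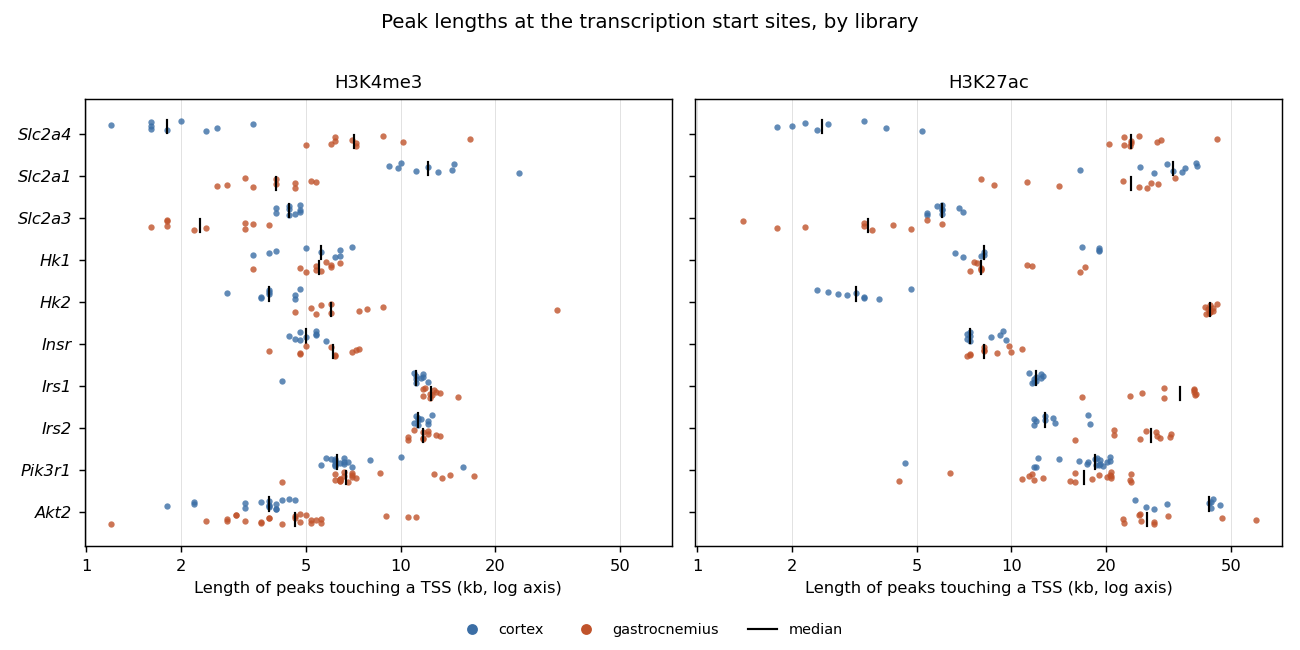
Length in kb (x axis, log scale) of the H3K4me3 and H3K27ac peaks that touch a TSS of each gene (y axis), 1 point per peak and library, with medians as bars; genes with several start sites show the peaks of all of them. Slc2a1 has the longer H3K4me3 peaks in cortex (median 12.2 against 4.0 kb), while Slc2a4 and Hk2 have the longer H3K27ac peaks in gastrocnemius (24.0 against 2.5 kb and 42.8 against 3.2 kb).

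Slc2a3 (chr6:122727809-122742745, minus strand, 14.9 kb), the neuronal transporter GLUT3, was the mirror image of Slc2a4. H3K4me3 at its TSS ran from 18.9 to 23.5 RPM per kb in the cortex (median 21.0) and from 6.48 to 12.1 in gastrocnemius (median 8.11). H3K27ac ran from 5.15 to 6.71 and from 1.74 to 3.16. Both marks separated the tissues without overlap, with log2 changes of -1.03 ± 0.094 (edgeR adjusted p = 1.01e-10) and -1.05 ± 0.069 (adjusted p = 1.29e-11). Over the body the falls were larger, -2.31 ± 0.24 for H3K4me3 (adjusted p = 1.9e-08) and -1.98 ± 0.17 for H3K27ac (adjusted p = 1.55e-09), again without overlap. The H3K4me3 peak was 4.0 to 4.8 kb long in the cortex and 1.6 to 3.8 kb in gastrocnemius.

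H3K27me3 lay over the Slc2a3 TSS in all 10 gastrocnemius libraries, at 2.12 to 6.49 RPM per kb (median 4.46), and in 2 of 9 cortex libraries, at 2.77 in library 1 and 3.31 in library 5. Fisher's exact test gave an adjusted p of 0.00546. Among the libraries without a sequencing sample number the call was lost, with 71.4 percentage points between the tissues and an adjusted p of 0.1. In gastrocnemius, then, the start of Slc2a3 carried H3K4me3, H3K27ac and H3K27me3 in the same homogenate, and whether on the same cells or nucleosomes was not measured.

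Hk2 (chr6:82725025-82774454, minus strand, 49.4 kb), the muscle hexokinase, resembled Slc2a4. H3K4me3 at the TSS ran from 7.47 to 11.4 RPM per kb in the cortex (median 9.29) and from 7.26 to 21.4 in gastrocnemius (median 19). The ranges overlapped through gastrocnemius library 6 alone, the next lowest being at 14.3, and in this library the peak was 31.4 kb long, against 4.6 to 8.8 kb in the other gastrocnemius libraries. The log2 change was 1.15 ± 0.12 (SE, edgeR adjusted p = 3.7e-09) and lay between 1.1 and 1.23 when any 1 library was left out. Over the body it was 2.39 ± 0.2 (adjusted p = 7.4e-10).

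Among the 9 members in the main tests of H3K27ac, Hk2 had the largest change. Slc2a4 was not among them, and in the fits that could take it, it changed more, by 1.61 at the TSS and 4.35 over the body. At the TSS of Hk2, H3K27ac was 2.34 to 3.71 RPM per kb in the cortex and 4.95 to 7.73 in gastrocnemius (1.33 ± 0.12, edgeR adjusted p = 1.97e-09). Over the body it was 0.127 to 0.437 against 4.12 to 6.66, a log2 change of 4.2 ± 0.18 (adjusted p = 2.11e-14). In all 10 gastrocnemius libraries a single peak of 41.4 to 45.0 kb spanned most of the gene, where the cortex had a peak of 2.4 to 4.8 kb at the start. H3K27me3 touched the TSS window in all 9 cortex libraries, at 0.836 to 4.27 RPM per kb (median 3.59), and in 1 gastrocnemius library, replicate 3, at 2.6 (Fisher's exact test, adjusted p = 0.00126). Over the body the level was 1.12 to 2.65 in the cortex, with a peak in that 1 gastrocnemius library, at 0.132. The peaks at the TSS reach into the body, so the body is not a fully separate measurement. In cortex library 6, the lowest, the H3K27me3 peak covered 17.3% of the window and ended within the gene, short of the start. In the other 8 cortex libraries the CpG-rich start of Hk2 lay within peaks of H3K27me3.

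**Figure D4:**
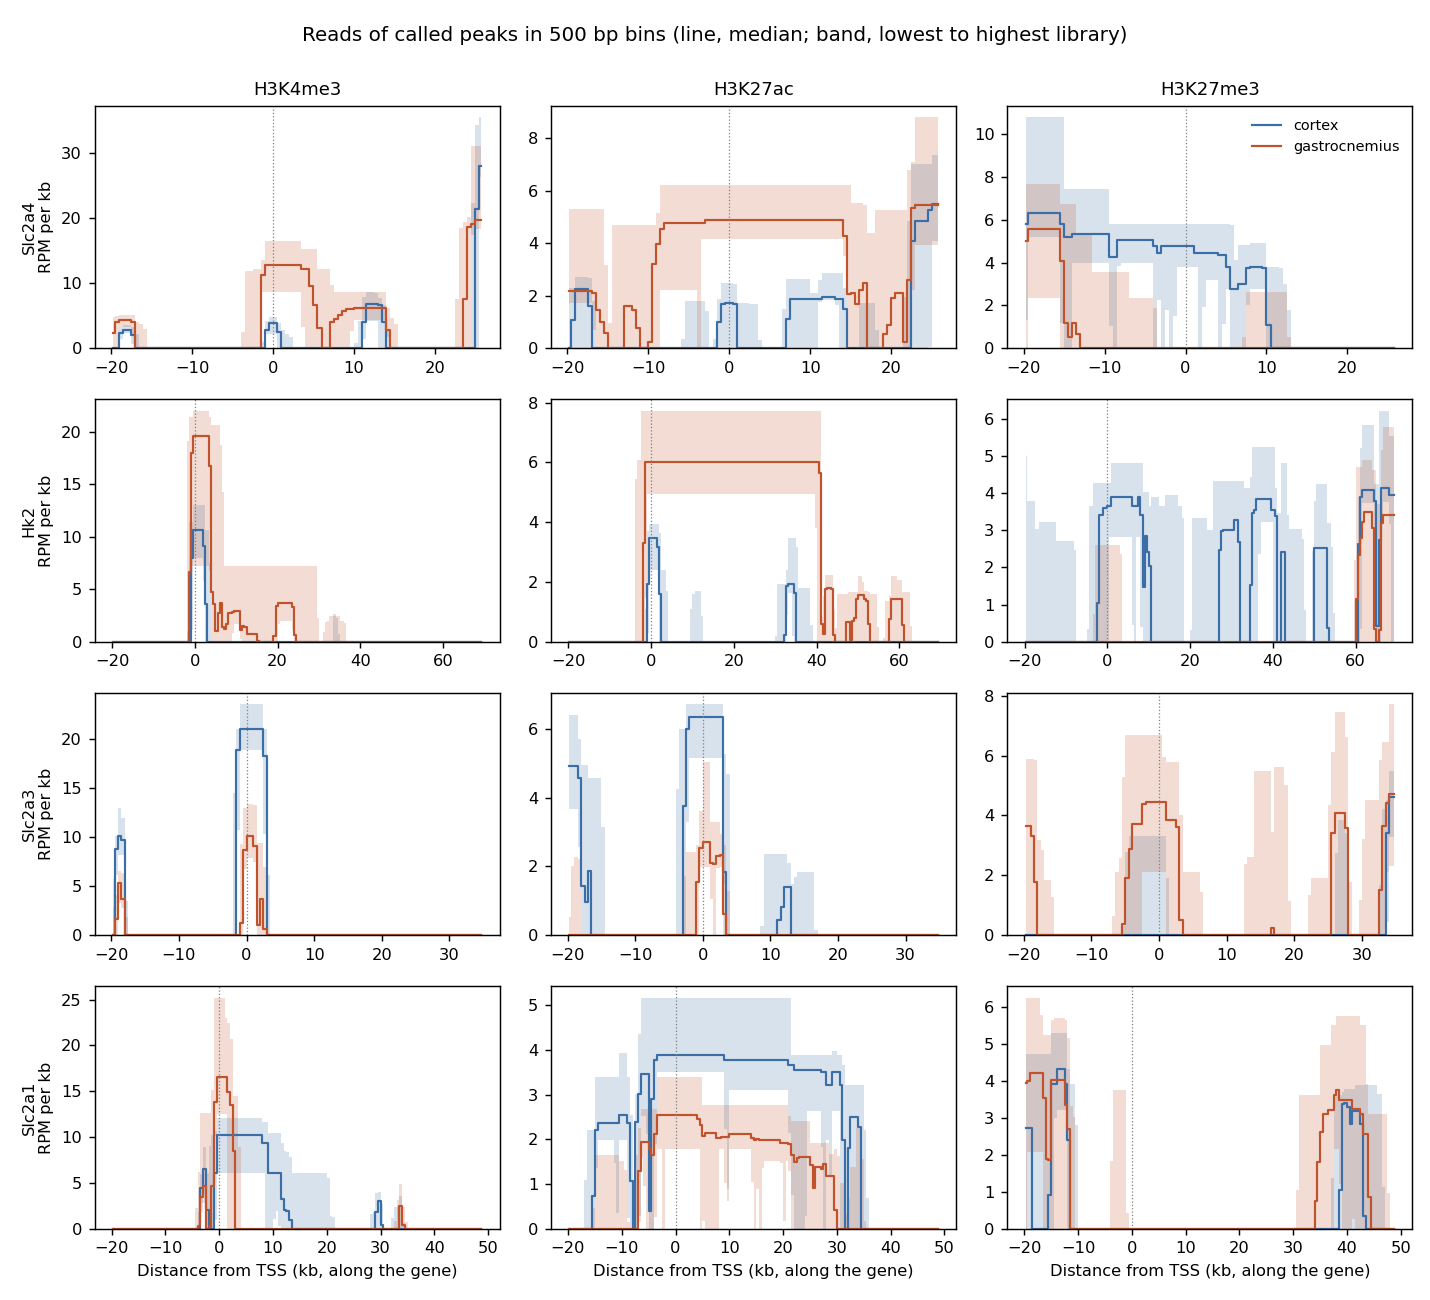
Reads of called peaks in RPM per kb (y axis) in bins of 500 bp by distance from the TSS in kb, positive into the gene (x axis), for Slc2a4, Hk2, Slc2a3 and Slc2a1 (rows) and the 3 marks (columns); lines are medians over the 9 cortex and 10 gastrocnemius libraries and bands run from the lowest to the highest library. An H3K27ac peak covers most of the body of Hk2 in gastrocnemius (4.12 to 6.66 over the body). H3K27me3 lies over Slc2a4 and Hk2 in cortex and over Slc2a3 in gastrocnemius. Each peak's reads were spread evenly along it, so the height within a peak does not show where its reads lie. Signal far from 0 can belong to neighbouring genes.

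Hk1 (chr10:62268855-62379908, minus strand, 111.1 kb), the hexokinase of brain, was lower in gastrocnemius in both active marks. It has 2 curated start sites, 62379908 upstream and 62340421 downstream. The downstream site carried the H3K4me3, 22.6 to 46.4 RPM per kb in the cortex (median 29.5) and 13.2 to 22.1 in gastrocnemius (median 16.1), and H3K27ac, 4.55 to 9.81 and 3.17 to 5.31. The upstream site, with 1 CpG in the stretch shown above, had neither mark in any of the 19 libraries of each, and H3K27me3 in 7 of 9 cortex and 9 of 10 gastrocnemius libraries. H3K27me3 at the downstream site was called in no cortex library and in 6 of 10 gastrocnemius libraries. Over both windows together, H3K4me3 fell by 0.64 ± 0.11 on the log2 scale (edgeR adjusted p = 2.09e-05, no overlap), and H3K27ac fell by 0.49 ± 0.13 (adjusted p = 0.00275, with overlap). The H3K4me3 call was lost among the libraries with a sequencing sample number (-0.4, adjusted p = 0.139).

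Over the body of Hk1 the log2 changes were -0.93 ± 0.12 in H3K4me3 (edgeR adjusted p = 5.09e-07, with overlap) and -1.43 ± 0.1 in H3K27ac (adjusted p = 6.15e-11, without). H3K27ac there was 1.64 to 1.83 RPM per kb in the cortex and 0.466 to 0.889 in gastrocnemius. H3K27me3 over the body rose, from 0.289 to 0.589 to 0.348 to 0.86 (0.54 ± 0.17, adjusted p = 0.0116), with ranges that overlapped. That call was lost among the libraries without a sequencing sample number (0.27, adjusted p = 0.261). The downstream window also holds the start of Hk1os, an antisense gene whose reads cannot be told apart from those of Hk1.

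Insr (chr8:3150922-3279617, minus strand, 128.7 kb), the insulin receptor, had small changes at the TSS. H3K4me3 at the TSS ran from 24.6 to 31.2 RPM per kb in the cortex (median 29.0) and from 15.4 to 31.9 in gastrocnemius (median 20.5), and the log2 change of -0.11 ± 0.1 was not called (edgeR adjusted p = 0.364). The highest gastrocnemius value was that of library 5, from an animal without a cortex library, with the next at 24.0. Its peak was 3.8 kb long, the shortest of the 10. Without it the change was -0.21 (adjusted p = 0.031), and on those same libraries -0.21 with a replicate block by animal (adjusted p = 0.0568), both calls. It was -0.42 without TMM (adjusted p = 0.00312) and -0.25 in all reads of the touching peaks (adjusted p = 5.52e-09). Over the body H3K4me3 fell (-0.4 ± 0.069, adjusted p = 3.47e-05).

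H3K27ac at Insr was called higher in gastrocnemius, by 0.22 ± 0.071 at the TSS (edgeR adjusted p = 0.0157) and by 0.53 ± 0.061 over the body (adjusted p = 1.16e-07). At the TSS the levels nearly coincided, 4.62 to 7.2 and 4.45 to 6.69 RPM per kb, and the sign turned without TMM (-0.05, adjusted p = 0.726) and with all reads of the touching peaks (-0.14, adjusted p = 0.0486). The call was also lost among the libraries without a sequencing sample number (0.17, adjusted p = 0.153). Over the body the ranges did not overlap, 0.911 to 1.18 in the cortex and 1.42 to 1.79 in gastrocnemius. Among the libraries with a sequencing sample number, 2 of cortex and 4 of gastrocnemius, neither the TSS (0.33, adjusted p = 0.261) nor the body (0.35, adjusted p = 0.135) was called. No library had an H3K27me3 peak at the TSS or over the body.

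Irs1 (chr1:82233105-82291439, minus strand, 58.3 kb), the main receptor substrate of muscle, differed over its body more than at its start. H3K27ac over the body ran from 1.06 to 1.48 RPM per kb in the cortex and from 3.13 to 4.35 in gastrocnemius, a log2 change of 1.45 ± 0.075 without overlap (edgeR adjusted p = 4.02e-13). The peak that touched the TSS was 11.4 to 12.6 kb long in the cortex and 16.8 to 38.6 kb in gastrocnemius (median 34.4). Within 1 kb of the TSS, H3K27ac was lower in gastrocnemius, 3.96 to 8.13 against 6.81 to 9.79 (-0.41 ± 0.093, adjusted p = 0.000859), while all reads of those longer peaks were higher, by 0.52 (adjusted p = 0.000126). So the direction at the TSS again turned with the placing of the reads, and among the libraries with a sequencing sample number the TSS call was lost (-0.15, adjusted p = 0.71).

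H3K4me3 at the Irs1 TSS was 18.9 to 31.7 RPM per kb in the cortex (median 20.6) and 19.9 to 30.4 in gastrocnemius (median 22.9), ranges that lay over each other. The log2 change was 0.42 ± 0.11 (edgeR adjusted p = 0.00153), but 0.1 without TMM (adjusted p = 0.417), and it was not called among the libraries with a sequencing sample number (0.49, adjusted p = 0.24). The highest cortex value belonged to library 7, where the peak was 4.2 kb long against 11 to 12.2 kb in the other cortex libraries. Over the body the change was 0.23 ± 0.093 (adjusted p = 0.0403), a call lost without gastrocnemius library 6 (0.17, adjusted p = 0.109), among the libraries without a sequencing sample number (0.14, adjusted p = 0.276) and among those with one (0.33, adjusted p = 0.221). H3K27me3 touched the TSS window in 3 cortex and 3 gastrocnemius libraries, and the start itself lay in a peak in cortex library 7 alone.

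Irs2 (chr8:10984681-11008929, minus strand, 24.2 kb), the second receptor substrate, had long H3K4me3 peaks in both tissues, 11 to 12.6 kb in the cortex and 10.6 to 13.4 kb in gastrocnemius. At the TSS the level was 21.7 to 27 RPM per kb (median 24.5) and 17.9 to 24.2 (median 20.5), with a log2 change of 0.06 ± 0.082 that was not called (edgeR adjusted p = 0.549). The sign turned without TMM (-0.25, adjusted p = 0.0152), with all reads of the touching peaks (-0.23, adjusted p = 3.4e-05) and in a window of 2.5 kb (-0.16, adjusted p = 0.0202). Over the body it fell by 0.37 ± 0.059 on the log2 scale (adjusted p = 8.96e-06), with overlap, and was not called among the libraries with a sequencing sample number (-0.32, adjusted p = 0.139).

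H3K27ac at the Irs2 TSS was lower in gastrocnemius, 4.09 to 5.95 against 5.6 to 10.6 RPM per kb (-0.42 ± 0.096, edgeR adjusted p = 0.000911), overlapping through cortex library 8 alone. Among the libraries with a sequencing sample number it was -0.12 (adjusted p = 0.764). All reads of the touching peaks gave 0.09 (adjusted p = 0.481), the gastrocnemius peaks being 16.0 to 32.2 kb long against 11.8 to 17.8 kb, and over the body H3K27ac was not called (0.04 ± 0.078, adjusted p = 0.694). H3K27me3 touched the TSS window in 5 of 10 gastrocnemius and 0 of 9 cortex libraries, which was not called by Fisher's exact test (adjusted p = 0.119). It was called in a window of 2.5 kb (60.0 percentage points, adjusted p = 0.0508). In gastrocnemius library 4 the level reached 4.86 RPM per kb, and in the other 4 it was at most 1.51. The lncRNA gene 9530052E02Rik overlaps the span of Irs2.

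Pik3r1 (chr13:101680761-101768217, minus strand, 87.5 kb), the regulatory subunit p85 alpha, was not called at the TSS in either active mark. The H3K4me3 level over both its starts was 13.8 to 24.4 RPM per kb in the cortex and 11.4 to 28.4 in gastrocnemius (log2 change -0.03 ± 0.12, edgeR adjusted p = 0.87). H3K27ac ran from 4.78 to 8.65 and from 3.15 to 8.26 (-0.02 ± 0.12, adjusted p = 0.891). Tested apart, the downstream start (101692630) was lower in gastrocnemius in H3K4me3 (-0.24 ± 0.089, adjusted p = 0.0264) and H3K27ac (-0.26 ± 0.098, adjusted p = 0.0375). The CpG-rich upstream start (101768217) was called in neither (0.08 ± 0.18 and 0.14 ± 0.19), nor with all reads of its peaks (-0.03 and -0.21). Among all single start windows, 54.1% were called in H3K4me3 and 50.3% in H3K27ac. The difference between the 2 starts was not tested. The H3K4me3 change over both starts was called without TMM (-0.31, adjusted p = 0.0749), in a window of 2.5 kb (-0.26, adjusted p = 0.0748) and with all reads of the touching peaks (-0.17, adjusted p = 1.56e-05), and that of H3K27ac with all reads (-0.5, adjusted p = 0.000141).

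Over the body of Pik3r1, H3K4me3 was called lower (-0.15 ± 0.05, edgeR adjusted p = 0.0149), with the sign turned without TMM (0.06, adjusted p = 0.438) and no call among the libraries with a sequencing sample number (-0.24, adjusted p = 0.162), and H3K27ac was not called (-0.09 ± 0.055, adjusted p = 0.134). The latter became a call with all reads of the touching peaks (-0.16, adjusted p = 0.0368), without the 25% of peaks with the lowest scores (-0.11, adjusted p = 0.07), and without gastrocnemius library 5, 7 or 10 (-0.11 each, adjusted p = 0.0881, 0.0932 and 0.0882). No H3K27me3 peak touched the gene in any library.

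Akt2 (chr7:27591552-27640826, plus strand, 49.3 kb), the AKT kinase of insulin-stimulated glucose uptake, had more H3K4me3 around its starts in gastrocnemius, 4.75 to 7.63 against 3.25 to 5.02 RPM per kb (0.83 ± 0.11, edgeR adjusted p = 8.31e-08). The ranges overlapped slightly, and among the libraries with a sequencing sample number the change was not called (0.51, adjusted p = 0.102). Its 4 curated starts fall into 3 windows. The first (27591552) had the highest H3K4me3, 11.6 to 16.3 in the cortex and 7.47 to 23.1 in gastrocnemius (0.34 ± 0.13, adjusted p = 0.0328). The second (27596830), with 0 CpGs in the 250 bases before it, had a peak in 7 of 10 gastrocnemius and no cortex libraries. The third (27605797 and 27607336) had one in all 10 gastrocnemius libraries, at 2.14 to 4.51, and in 7 of 9 cortex libraries, at up to 1.91. Whether the windows differed from each other in their change was not tested.

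H3K27ac at Akt2 moved the other way. A single peak of 24.8 to 46.2 kb in the cortex and 22.6 to 60.0 kb in gastrocnemius covered all of the starts, so their values were not separate measurements. The TSS level was 5.36 to 8.42 RPM per kb in the cortex and 3.61 to 5.9 in gastrocnemius (-0.17 ± 0.06, edgeR adjusted p = 0.0232), not called among the libraries with a sequencing sample number (-0.16, adjusted p = 0.4). Over the body it was 3.97 to 5.31 against 2.33 to 3.01, without overlap (-0.83 ± 0.061, adjusted p = 1.14e-10). H3K4me3 over the body was not called (0.13 ± 0.14, adjusted p = 0.444), but was without TMM (0.34, adjusted p = 0.0579) and with all reads of the touching peaks (0.59, adjusted p = 8.62e-07). H3K27me3 was absent from the called peaks of every library.

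Beyond these 10 genes, 72 further genes of the insulin pathway, grouped as ligands, receptors and adaptors, PI3K, AKT and their brakes, mTOR, GSK3 and FOXO, GLUT4 traffic, and other transporters, hexokinases and glycogen genes, were called in both directions in each active mark and region. In H3K4me3 at the TSS, 21 of 62 tested were higher in gastrocnemius and 15 lower, against 25.2% and 28.8% of all genes, with a median log2 change of -0.02. Over the bodies 19 of 56 were higher and 13 lower, against 32.7% and 30.6%. In H3K27ac at the TSS, 19 of 61 were higher and 17 lower, median 0.0, against 24.0% and 26.2%. Over the bodies, 34 of 62 were higher in H3K27ac and 18 lower, against 35.6% and 37.7%, with a median of 0.37 against -0.03 over all genes. By group, beside the same shares of all genes, 8 of 14 bodies of GLUT4 traffic genes were higher in H3K27ac and 5 lower. For ligands, receptors and adaptors it was 8 of 12 and 1, and for PI3K, AKT and their brakes 6 of 12 and 2. For mTOR, GSK3 and FOXO it was 6 of 12 and 4, and for other transporters, hexokinases and glycogen genes 6 of 12 and 6.

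Ppp1r3a, the muscle subunit that ties protein phosphatase 1 to glycogen, had H3K4me3 and H3K27ac at its TSS in all 10 gastrocnemius and no cortex libraries, at 8.97 to 15.8 and 3.81 to 6.89 RPM per kb (Fisher's exact test, adjusted p = 0.00024 and 0.000194). The ligand genes Igf2 and Igf1 and the transporter gene Slc2a10 had the largest rises in H3K4me3 reads, 1.8 ± 0.15, 1.24 ± 0.099 and 1.52 ± 0.12 on the log2 scale (edgeR adjusted p = 2.31e-11, 6.1e-12 and 6.34e-12). Slc2a6 (-1.96 ± 0.14), Igf2r (-1.16 ± 0.099) and Tsc2 (-0.9 ± 0.12) had the largest falls. In H3K27ac reads the largest rise was that of Txnip, whose product restrains glucose uptake, 1.56 ± 0.086 (adjusted p = 9.19e-13), from 2.76 to 4.69 in the cortex to 7.24 to 10.8 in gastrocnemius. Igf1 rose by 1.01 ± 0.11 and Grb10, an adaptor that damps the receptor, by 0.96 ± 0.24, while Slc2a6 (-0.94 ± 0.085), Grb14 (-0.86 ± 0.12) and Prkaa2, a catalytic subunit of AMPK (-0.84 ± 0.12), fell.

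In H3K27me3, 20 of the 72 genes had a peak in some library, and 3 were called more often and 3 less often in gastrocnemius, beside 13.1% and 10.3% of all genes. Slc2a6 and Slc2a13, a myo-inositol transporter, had peaks in all 10 gastrocnemius and no cortex libraries (adjusted p = 0.00021 each) and Hk3 in 7 of 10 and none (adjusted p = 0.018). Ins2 was marked in 9 of 9 cortex libraries against none, Pik3cd, the leukocyte PI3K catalytic subunit, in 8 against 0 and Igf1 in 9 against 2. Ins2 lies next to Igf2 in the mouse genome, and had H3K27ac in 9 of 10 gastrocnemius libraries without an H3K4me3 peak in any library. By reads, Igf2 (-0.59 ± 0.077, edgeR adjusted p = 3.84e-06) and Grb10 (-0.77 ± 0.27, adjusted p = 0.0239), both imprinted genes, were lower in gastrocnemius, where 26.3% of 2125 genes fell and 23.6% rose. The Slc2a family thus held genes marked by H3K27me3 in 1 tissue only in both directions, Slc2a4 in the cortex and Slc2a6 and Slc2a13 in gastrocnemius.

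The genes with the most similar TSS values were sought by Euclidean distance of log2(RPM per kb + 1) over all 57 libraries. H3K27me3 was part of that distance, so the H3K27me3 calls below describe the genes found and are no separate likeness. Nearest to Slc2a4 were Gypc, P2rx5 and Dysf, the gene of dysferlin, at distances of 2.53, 2.57 and 2.61, where the median distance of all genes was 13.2. They had H3K27me3 in 9 of 9 cortex libraries and in 0, 1 and 0 gastrocnemius libraries. Nearest to Slc2a3 were Dlk2, Fam131b and Kirrel3 (2.11, 2.6 and 2.7, median 10.9), with H3K27me3 in all 10 gastrocnemius libraries and 3, 3 and 4 cortex libraries. Nearest to Hk2 were P2ry2, Gm31734 and Ptpn14 (2.9, 3.02 and 3.21, median 11.2), with H3K27me3 in all cortex and no gastrocnemius libraries, and nearest to Slc2a1 were Ctsz, G0s2 and Casp6 (2.08, 2.13 and 2.14, median 10.7), without H3K27me3 in any.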

How the data were processed

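Chromatin from snap-frozen brain cortex and gastrocnemius was immunoselected for H3K4me3, H3K27ac or H3K27me3 and sequenced. Alignment by the authors used BWA and build mm10, with filtering in SAMtools, and they called peaks per library with epic2, without pooling. The deposited peak lists hold, for each peak, the count of reads in it (ChIPCount) and the epic2 score. The scores were used only to rank peaks in an alternative. No input library was used here.

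Peaks were laid over 24963 autosomal genes and 1126 genes of chromosome X were left out. The TSS windows reached 1 kb to each side of every curated RefSeq start, and the body was the rest of the gene where at least 1 kb remained. Each peak's reads were spread evenly along it. Windows with a peak in all libraries were tested with edgeR 4.0.16 in R 4.3.3 (quasi-likelihood, TMM scaling), and the share of libraries with a TSS peak with two-sided Fisher's exact tests (SciPy 1.17.1), both with Benjamini-Hochberg adjustment over all genes and a threshold of 0.1. The standard errors (SE, ±) are not an output of edgeR. They were derived as the absolute log2 change divided by the square root of the F statistic. Fits were tested on simulated data. Intervals between the lowest and highest library describe the spread between animals of mixed sex.

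The members and gene lists were chosen with earlier results of these data known. The text names the 10 members; per mark and direction, up to 3 of the 72 pathway genes with the lowest p in calls and up to 3 with the largest change in reads; and the 3 nearest profiles of Slc2a4, Slc2a1, Slc2a3 and Hk2. One pathway gene that this rule selects is not reported here. Marker lists covered muscle fibres, neurons, astrocytes, oligodendrocytes, microglia, endothelium, adipocytes and fibroblasts.

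The animal tags in the deposited names pair 9 cortex with 9 gastrocnemius libraries per mark. The deviations of paired libraries from their group means correlated at r of -0.101 to 0.104, and 2, 1 and 3 of 9 cortex libraries correlated best with their own animal in H3K4me3, H3K27ac and H3K27me3. Alternatives changed the scaling, test (DESeq2 1.42.0), filters, window, placing of reads, libraries and replicate block.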

Additional observations from a re-analysis of the deposited data

Results flagged for a closer look

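Of 84 groups of member values in which every library had a peak, 5 had a highest or lowest library that stood apart from the rest, where chance alone marks about 1 group in 20. In H3K4me3 at the TSS, gastrocnemius library 6 was lowest for Hk2 (7.26 RPM per kb, the next 14.3), with a peak 31.4 kb long. Gastrocnemius library 5 was highest for Insr (31.9, the next 24.0), with a peak of 3.8 kb. Cortex library 7 was highest for Irs1 (31.7, the next 23.4), with a peak of 4.2 kb. In H3K4me3 over the body, gastrocnemius library 6 was highest for Irs2 (9.85, the next 8.11). In H3K27ac over the body, cortex library 9 was highest for Slc2a1 (4.38, the next 3.89), in the shallowest library of the mark with 3.94 M reads in peaks.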

How the results depend on the processing

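Of the members' values under alternatives other than leaving out 1 library, 613 kept their side of the threshold, 37 lost a call, 15 gained one and 9 changed direction in a value called on at least 1 side, and with 1 library left out 1229 kept their side, 4 gained and 1 lost a call. Values called on neither side could change sign among those kept, as at Pik3r1. The reversals were at the TSS, in H3K4me3, Slc2a1 (-0.86) and Irs2 (-0.23) with all reads of the touching peaks, and Irs2 without TMM (-0.25) and in a window of 2.5 kb (-0.16); in H3K27ac, Insr without TMM (-0.05) and, with all reads, Insr (-0.14), Irs1 (0.52) and Irs2 (0.09); and, over the body in H3K4me3, Pik3r1 without TMM (0.06). The cause was not tested. With the replicate block by animal, the H3K4me3 TSS counts were 5 members higher and 3 lower, and 3312 and 4056 of all genes. Insr was a call on these libraries with the block (-0.21, adjusted p = 0.0568) and without it (0.031). Pik3r1 in H3K27ac over the body was a call on them without the block only (-0.11, adjusted p = 0.0881). The other members' calls were as in the full set.
Without TMM, the genes called higher and lower at the TSS numbered 1603 and 8495 in H3K4me3 (5 members lower), 1146 and 6691 in H3K27ac (1 member higher) and 187 and 333 in H3K27me3. With all reads of the touching peaks, 5522 genes were higher in H3K4me3 and 5102 in H3K27ac. There 6 members were lower in H3K4me3, a count given without that of all genes lower. In a window of 2.5 kb, 5 members were lower in H3K4me3, 1 was higher in H3K27ac and 2 were called more often in H3K27me3, and with the 5' end of the gene as its only start 1 was lower in H3K4me3. Counts over all genes are not given for these 2 settings, so the member counts cannot be read against them.
In the libraries with a sequencing sample number alone (2 cortex, 4 gastrocnemius), 1609 genes were higher and 1782 lower in H3K4me3 at the TSS (members 3 and 1), 1791 and 1911 over the body (1 member higher), and 957 and 1114 in H3K27ac at the TSS (members 1 and 3), with 2572 lower over the body. In the others, 1 member was higher in H3K4me3 over the body and 0 in H3K27me3 over the body, 501 genes were called more often in H3K27ac, and 804 more and 709 less often in H3K27me3 (0 members more often). Counts over all gene bodies in these libraries are not given. Leaving out 1 library gave 1 to 2 members higher in H3K4me3 over the body, the lower count being without gastrocnemius library 6. Over all genes, 3060 to 3245 were higher there.
With a change of at least 2-fold required as well, 701 genes were higher and 714 lower in H3K4me3 at the TSS (members 3 and 1), 1408 and 1320 over the body (members 1 and 2), 243 and 334 in H3K27ac at the TSS (members 1 and 1), 1783 and 1715 over the body, 38 and 10 in H3K27me3 at the TSS, and 408 and 218 over the body (0 members higher). A peak in every library of 1 tissue and none of the other was found in gastrocnemius at 299, 288 and 342 genes and in the cortex at 462, 755 and 226 in H3K4me3, H3K27ac and H3K27me3 (in the last, 0 members in gastrocnemius and 1 in the cortex). With windows lacking a peak in up to 10 libraries put at 0 reads, H3K27me3 gave 1433 genes higher and 1187 lower at the TSS (members 1 and 2) and 2067 and 1865 over the body (members 2 and 2). The shallowest libraries held 2.99 M reads in peaks in H3K27me3 and 3.94 M in H3K27ac, which limits the peaks that could be called there.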
